A study of Mus musculus with 9 samples.

Results

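Proteoglycans are core proteins that carry sulfated sugar chains. The genes followed here encode the syndecans Sdc1, Sdc2 and Sdc4, the glypicans Gpc1, Gpc3 and Gpc4, the small leucine-rich matrix proteoglycans Dcn, Bgn and Lum, and the large matrix proteoglycan Vcan. Members were all probe sets of the mouse whole-genome array whose single gene symbol was 1 of these 10 names, out of 18194 genes named on the array. This gave 28 of 45101 probe sets, none of which also named another gene. Of these, 17 probe sets of 7 genes reached a signal over 500 on at least 1 array, the level required for testing, and they were among 13845 tested probe sets for 7952 genes. Gpc1, Gpc3 and Lum had no probe set over that level.

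RNA came from cultured mouse ovarian surface epithelial (MOSE) cells, a C57BL6 line that transformed spontaneously with passage. The 3 stages were early cells (MOSE-E, passages 13, 14 and 15, labelled non-malignant and described as pre-neoplastic), intermediate cells (MOSE-I, passages 63, 71 and 73, described as pre-invasive) and late cells (MOSE-L, passages 136, 142 and 143, described as malignant and invasive). All were grown in the same serum-containing medium with insulin, transferrin and selenite, and received no treatment. There were 3 arrays a stage, titled biological replicates, each with RNA of a different passage. The labels call the cultures heterogeneous. Because all stages came from 1 cell series, p-values measured the spread between its passages within a stage, and stage could not be told apart from time in culture. In such bulk cultures, fewer cells expressing a gene and less RNA per cell also cannot be told apart.

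Syndecans span the plasma membrane and glypicans are attached to its outer face by a lipid anchor. Both carry heparan sulfate, which binds growth factors and matrix proteins and presents them to their receptors. Decorin, biglycan and lumican bind collagen fibrils, and versican binds hyaluronan in the loose matrix around cells. In epithelia the syndecans are known as coreceptors for adhesion, and their outer parts can be shed by metalloproteinases.

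The deposited values were MAS signals in arbitrary units, and array medians ran from 93.2 to 130.0. The ratio of 3' to 5' signal of the Actb control, a sign of RNA quality, was 1.12 to 1.45 on 8 arrays and 1.83 on MOSE-L replicate 3, which also correlated least with the other arrays of its stage (0.889 and 0.907). The same ratio for the Gapdh control ran from 0.727 to 0.81 over all arrays and was lowest, at 0.727, on MOSE-L replicate 3. Of 13 markers of ovarian surface epithelium and mesothelium, 10 passed a signal of 500, among them Krt8, Krt18, Krt19, Upk3b and Wt1, while Lhx9, Gata4 and Lgr5 did not. Mean Krt7 was 3328, 293.6 and 128.9 and mean Cdh1 was 739.1, 55.96 and 52.36 over the successive stages (MOSE-E first). Cdh1 stayed under 100 on all 6 later arrays, whereas Krt7 still reached 545.3 on MOSE-I replicate 2. Some other markers of this list took a different course. Mean Wt1 was 1990, 1812 and 3940, mean Upk3b 14380, 13840 and 22150, and mean Msln 5396, 990.7 and 4035 over the stages. By the thresholds given below, 5 of the 10 tested markers were called lower and none higher in MOSE-L versus MOSE-E cells, against 15.6% of all genes called. In MOSE-I versus MOSE-E cells, 4 were called lower and none higher, against 5.9% of all genes. In MOSE-L versus MOSE-I cells, 2 were called higher and 1 lower, against 13.4% of all genes. Summed signals of 6 smooth muscle markers were 33305 to 94784 on MOSE-E arrays, 7028 to 30365 on MOSE-I arrays and 645 to 1834 on MOSE-L arrays, and those of 9 fibroblast markers were 58351 to 95952, 56162 to 65518 and 39329 to 63878 over the same stages. The smooth muscle sum in MOSE-E cells was carried by Acta2 and Tagln. Myh11 and Des did not pass 500, and mean Des was 267.8, 152.6 and 234.5 over the stages.

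The fibroblast sum was carried by Vim and Col3a1, and other members ran differently. Pdgfra, a stromal growth factor receptor, had signals of 185, 178 and 128 in MOSE-E, 175.5, 1039.6 and 1556 in MOSE-I, and 536, 261 and 1221 in MOSE-L cells, without a call (adjusted p of 0.102 for MOSE-I versus MOSE-E). MOSE-I replicate 1 was its lowest MOSE-I array, as it was for Dcn and Tgfbr3. Its relative Pdgfrb rose in MOSE-I versus MOSE-E cells, with a log2 change of 1.74 (adjusted p = 0.0158), lost once replicate 2 or 3 of either stage was removed (1.45 to 1.89), and had -2.01 in MOSE-L versus MOSE-I cells (adjusted p = 0.00408).

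Most listed markers of endothelium (6 of 7), leukocytes (7 of 8) and granulosa or theca cells (6 of 7) did not pass 500, though Foxl2 of the last list reached 491. The exceptions were Esam, Csf1r and Star, named here, like the platelet-derived growth factor receptors, after their values were seen. Esam, an endothelial adhesion molecule, fell by 1.93 on the log2 scale in MOSE-I versus MOSE-E cells (adjusted p = 0.0194), lost once replicate 2 or 3 of either stage was removed (-2.05 to -1.61), and rose by 1.86 in MOSE-L versus MOSE-I cells (adjusted p = 0.0112), lowest in MOSE-I cells as Gpc4 was. Star, a cholesterol transporter of steroid-producing cells, had 308, 254 and 1402 in MOSE-L against 51.9, 45.2 and 9.88 in MOSE-E cells, a change of 2.70 (adjusted p = 0.0106). Csf1r was not called. The part of any of these markers in the results below was not tested.

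Pairwise comparisons of the stages were made in 1 linear model, and a gene was called when its Benjamini-Hochberg adjusted p was at most 0.05 and its change at least 1 on the log2 scale. In the latest versus the earliest cells (MOSE-L versus MOSE-E), Sdc1 and Dcn rose and Vcan fell, so that 3 of 7 tested genes (42.9%) were called, against 15.6% of all genes tested. Their groups did not overlap in 4 of 7 genes, against 44.8% of all genes. Between MOSE-I and MOSE-E cells, Sdc2 and Gpc4 fell and none rose, 28.6% of the 7 genes against 5.9% of all genes, with no overlap in 4 of 7 genes against 41.2%. Between MOSE-L and MOSE-I cells, only Gpc4 was called and it rose, 14.3% of the 7 genes against 13.4% of all genes, with no overlap in 4 of 7 genes against 44.2%. The median log2 changes of the 7 genes were -0.43, -0.27 and 0.47 in these comparisons, beside 0.03, 0.03 and -0.02 over all genes. With so few genes, these shares describe the genes themselves and no group behaviour. The 3 comparisons share arrays, so they are given side by side and not as separate evidence.

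**Figure D1:**
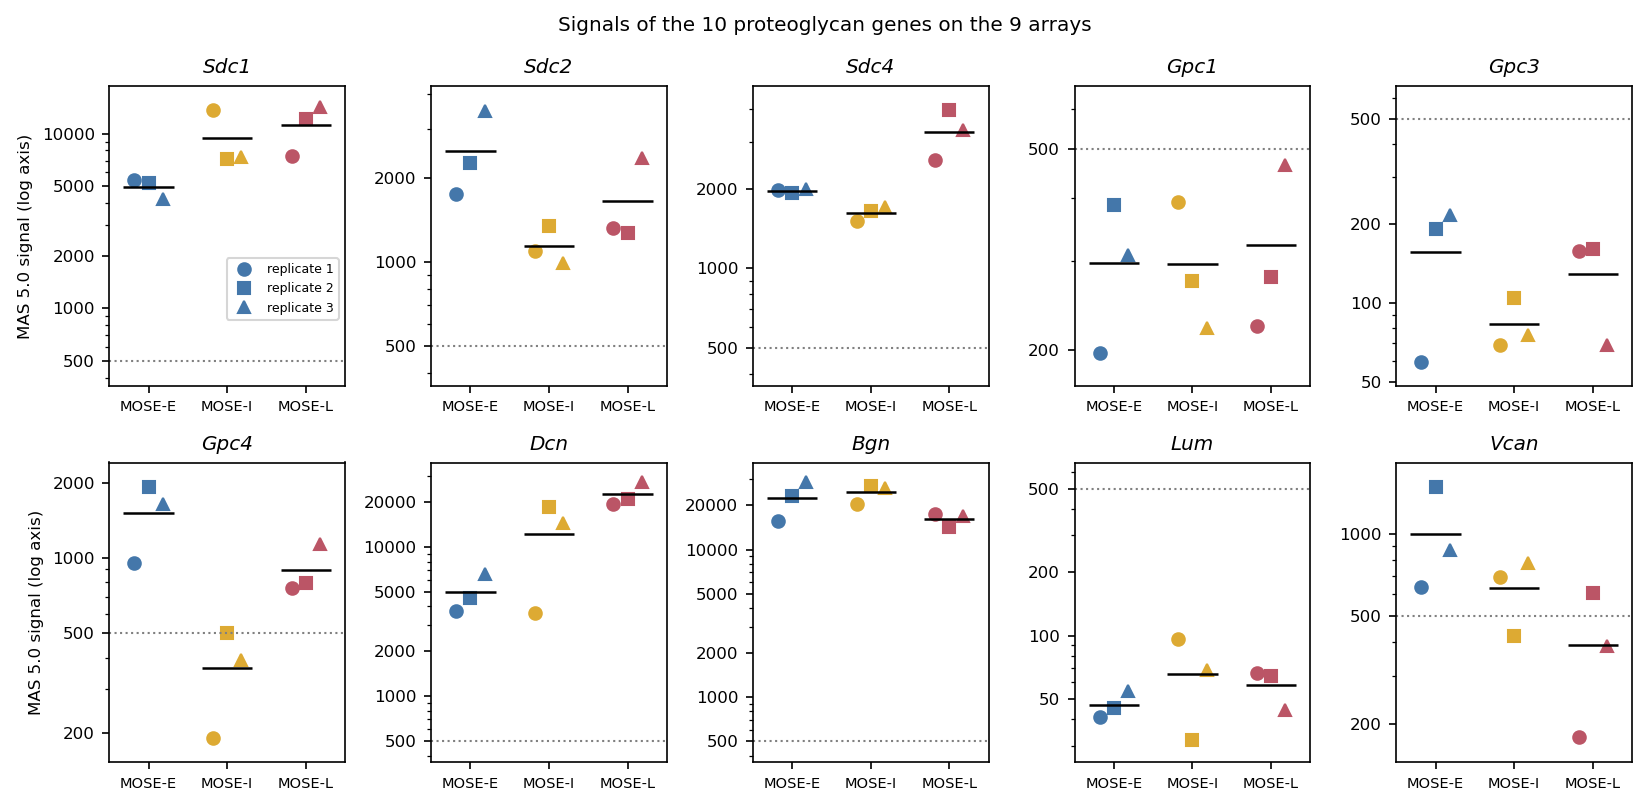
MAS signals (log axis, arbitrary units) of the 10 proteoglycan genes by stage, with 1 point per array, a bar at the stage mean, and a dotted line at 500. Each gene is shown by its probe set with the highest mean signal. Dcn lies at 19342 or above on all 3 MOSE-L arrays and at 6646 or below on all 3 MOSE-E arrays, Gpc4 is lowest in MOSE-I cells, and Gpc1, Gpc3 and Lum stay under the line.

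The promoters of the cell-surface members Sdc1, Sdc4 and Gpc4 are shown because these genes took 3 different courses over the stages. Each run holds the 250 bases before the annotated start in the RefSeq table of mouse assembly GRCm38.p6, written 5' to 3' on the strand of the gene. They lie at chr12:8771146-8771395 on the plus strand for Sdc1, chr2:164443189-164443438 on the minus strand for Sdc4 and chrX:52164924-52165173 on the minus strand for Gpc4. Capitals mark matches on either strand to TATAA (the TATA box core), GGGCGG (the GC box) and CCAAT.
Sdc1: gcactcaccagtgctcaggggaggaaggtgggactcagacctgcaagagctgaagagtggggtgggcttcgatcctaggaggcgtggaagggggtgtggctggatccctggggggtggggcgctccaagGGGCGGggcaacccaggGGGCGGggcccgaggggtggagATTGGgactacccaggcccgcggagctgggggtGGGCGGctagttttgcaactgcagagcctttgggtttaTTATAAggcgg
Sdc4: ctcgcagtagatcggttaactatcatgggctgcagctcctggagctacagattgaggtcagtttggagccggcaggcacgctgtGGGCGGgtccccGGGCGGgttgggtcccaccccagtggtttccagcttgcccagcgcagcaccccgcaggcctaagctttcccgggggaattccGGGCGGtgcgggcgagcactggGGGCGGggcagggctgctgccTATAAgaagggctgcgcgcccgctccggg
Gpc4: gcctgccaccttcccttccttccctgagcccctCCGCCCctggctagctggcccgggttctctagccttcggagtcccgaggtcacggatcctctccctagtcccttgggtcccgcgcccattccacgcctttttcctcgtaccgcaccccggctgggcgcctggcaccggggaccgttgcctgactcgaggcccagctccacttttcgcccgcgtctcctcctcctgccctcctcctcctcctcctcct
Sdc1 held TATAA on both strands in overlapping matches within bases 11 to 6 before the start, 3 GC boxes and 1 CCAAT. Sdc4 held TATAA at 29 to 25 bases before the start and 4 GC boxes. Gpc4 had 1 GC box and neither TATAA nor CCAAT in this window. Among 32851 mouse promoter windows of this length, 22.8% held TATAA, 32.7% GGGCGG and 33.8% CCAAT on either strand. TATAA on the strand of the gene within the last 50 bases, as in Sdc1 and Sdc4, was held by 4.93%. These matches are descriptions of letters and were not tested for any effect on expression.

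Sdc1, the main syndecan of epithelia and a coreceptor for growth factors and matrix, rose in MOSE-L cells. Its signals were 5409.9, 5235 and 4248 in MOSE-E, 13639, 7111 and 7379.6 in MOSE-I, and 7412, 12051 and 14240.0 in MOSE-L cells. On this probe set, the one with the highest mean signal, all 6 later-stage arrays lay above all 3 MOSE-E arrays, and MOSE-I replicate 1 reached the MOSE-L range. Mean signals were 11234 ± 3487 in MOSE-L and 4964 ± 627 in MOSE-E cells (SD, 3 arrays each), 2.26-fold higher, a log2 change of 1.13 (95% interval 0.47 to 1.78, adjusted p = 0.0196). The MOSE-I versus MOSE-E change of 0.85 (0.20 to 1.51) did not pass (adjusted p = 0.0874), nor did the MOSE-L versus MOSE-I change of 0.28 (-0.38 to 0.93, adjusted p = 0.502). The representative probe set is of a type whose probes can also bind related transcripts. The other 3 probe sets of Sdc1 gave log2 changes of 1.16, 1.47 and 1.23 for MOSE-L versus MOSE-E, of which the first and second were called and the third was not (adjusted p = 0.0523). MOSE-I replicate 1 was the highest MOSE-I array on all 4 probe sets.

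The Sdc1 call was lost on leaving out 4 of the 9 arrays, 1 at a time, and held without each of the others. The log2 change was 1.17 or 1.02 without MOSE-E replicate 2 or 3 (adjusted p = 0.054 and 0.0804). Removing MOSE-L replicate 2 or 3 gave 1.05 or 0.93 (adjusted p = 0.0506 and 0.0557). MOSE-L replicate 3, the array with the highest Actb ratio, had the highest Sdc1 signal of all.

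Sdc2, the syndecan typical of mesenchymal cells, had its lowest stage mean in MOSE-I cells. Its signals were 1756, 2268 and 3490.5 in MOSE-E, 1096, 1344 and 989 in MOSE-I, and 1322, 1271 and 2367 in MOSE-L cells. MOSE-I arrays all lay below MOSE-E arrays, and MOSE-L arrays overlapped both. Sdc2 fell to 1143 ± 182 in MOSE-I cells, against 2505 ± 891 in MOSE-E cells (SD, 3 arrays each), a log2 change of -1.05 (-1.70 to -0.40, adjusted p = 0.0478). The other tested probe sets of Sdc2 gave -0.94 and -0.72 and were not called (adjusted p = 0.0915 and 0.146), and the remaining one stayed under 500. The call was lost without any of 6 arrays, MOSE-E replicates 2 and 3, MOSE-I replicates 1, 2 and 3, and MOSE-L replicate 2, with changes of -1.17 to -0.79 and adjusted p of 0.0519 to 0.189. Changes of -0.59 in MOSE-L versus MOSE-E cells (-1.24 to 0.06, adjusted p = 0.162) and 0.47 in MOSE-L versus MOSE-I cells (-0.18 to 1.12, adjusted p = 0.246) did not pass. In MOSE-L versus MOSE-I cells the other tested probe sets gave 0.34 and -0.0 (adjusted p = 0.455 and 0.997). On each of them the lowest array was MOSE-L replicate 2, at 474 and 786.

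Sdc4, a syndecan of focal adhesions that binds protein kinase C alpha through its cytoplasmic tail, had its highest stage mean in MOSE-L cells. Its signals were 1971, 1924 and 1990.2 in MOSE-E, 1514, 1653 and 1704 in MOSE-I, and 2564, 3964 and 3319.8 in MOSE-L cells. On this probe set, the one with the highest mean signal, the stages did not overlap in any comparison, and MOSE-E arrays differed from each other by 1.03-fold at most. The log2 change was 0.71 in MOSE-L versus MOSE-E cells (0.29 to 1.12, adjusted p = 0.0206) and 0.97 in MOSE-L versus MOSE-I cells (0.56 to 1.39, adjusted p = 0.00649). Both were past the p threshold and under the minimum change of 1, so neither was called. The MOSE-I versus MOSE-E change was -0.27 (adjusted p = 0.366). The second probe set of Sdc4 was called in MOSE-L versus MOSE-I cells at 1.06 (adjusted p = 0.0127), but gave 0.19 in MOSE-L versus MOSE-E cells (adjusted p = 0.597). It gave -0.88 in MOSE-I versus MOSE-E cells (adjusted p = 0.047), under the minimum change. Its MOSE-E arrays spanned 1.79-fold, and MOSE-E replicate 1 (1389) lay above every MOSE-L array. Without MOSE-I replicate 3 or MOSE-L replicate 1 the representative probe set also passed against MOSE-I cells, at 1.01 and 1.14.

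Gpc4, a glypican that modulates growth factor signals at the surface, fell in MOSE-I cells and was higher again in MOSE-L cells. Its signals were 957, 1928 and 1635 in MOSE-E, 190.5, 503 and 393 in MOSE-I, and 761, 798 and 1136.5 in MOSE-L cells. Every MOSE-I array lay below every array of the other stages. Gpc4 averaged 362 ± 159 in MOSE-I and 1507 ± 498 in MOSE-E cells (SD, 3 arrays each), 4.16-fold lower in MOSE-I, a log2 change of -1.94 (-2.68 to -1.21, adjusted p = 0.00877). In MOSE-L versus MOSE-I cells it rose by 1.26 (0.53 to 2.00, adjusted p = 0.0214). The MOSE-L versus MOSE-E change of -0.68 (-1.42 to 0.06) did not pass (adjusted p = 0.153). The second Gpc4 probe set had a change of -1.29 for MOSE-I versus MOSE-E (adjusted p = 0.0955). It had 1.06 for MOSE-L versus MOSE-I (adjusted p = 0.106) and -0.23 for MOSE-L versus MOSE-E cells (adjusted p = 0.74), none called. On this second probe set, MOSE-I arrays lay below all MOSE-L arrays but overlapped MOSE-E arrays.

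The fall in Gpc4 was lost as a call without MOSE-E replicate 2 (-1.74, adjusted p = 0.0551) or replicate 3 (-1.86, adjusted p = 0.0553). The rise was lost without MOSE-I replicate 1 (0.92, adjusted p = 0.0631) or MOSE-L replicate 3 (1.09, adjusted p = 0.0675). MOSE-I replicate 1, at passage 63, had the lowest Gpc4 signal of all arrays.

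Gpc1 and Gpc3 encode the other glypicans followed. Their probe sets ran from 198.0 to 465.3 for Gpc1 and from 59.6 to 216 for Gpc3 over the 9 arrays, with overlapping stages. They were not tested. In a fit of all probe sets without the filter, their changes were 0.08 and -0.15 in MOSE-L versus MOSE-E cells (adjusted p = 0.935 and 0.9).

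Dcn encodes decorin, which binds collagen fibrils and growth factors of the transforming growth factor beta family. Its signals were 3752, 4537 and 6646 in MOSE-E, 3588, 18678 and 14449 in MOSE-I, and 19342, 21035 and 27205 in MOSE-L cells. MOSE-L arrays lay above all others, and MOSE-I replicate 1 lay below every MOSE-E array while the other MOSE-I arrays lay near the MOSE-L range. Dcn averaged 22527 ± 4138 in MOSE-L and 4978 ± 1497 in MOSE-E cells (SD, 3 arrays each), 4.53-fold higher in MOSE-L, a log2 change of 2.19 (1.10 to 3.29, adjusted p = 0.0101). This call held without each of the 9 arrays in turn, with changes of 2.01 to 2.42. MOSE-L replicate 3, the array with the highest Actb ratio, had the highest Dcn signal, and the change without it was 2.05 (adjusted p = 0.0311).

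Signals of Dcn within MOSE-I cells spanned 5.21-fold, against 1.41-fold within MOSE-L and 1.77-fold within MOSE-E cells. The MOSE-I versus MOSE-E change was 1.03 (-0.07 to 2.12, adjusted p = 0.193), and without MOSE-I replicate 1 it was 1.75 and called (adjusted p = 0.00758). The MOSE-L versus MOSE-I change was 1.17 (0.07 to 2.26, adjusted p = 0.0981), and without MOSE-I replicate 2 it was 1.62 and called (adjusted p = 0.0477). Both changes stayed positive whichever array was left out, at 0.57 to 1.75 and 0.44 to 1.62, so that single arrays moved the calls and not the direction. A second Dcn probe set stayed between 48.0 and 283 on all arrays and was not tested.

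Bgn encodes biglycan, the small proteoglycan most like decorin, and it was not called in any comparison. Its signals were 15631, 23087 and 28640.5 in MOSE-E, 20403, 27195.2 and 26209.7 in MOSE-I, and 17439, 14154 and 16953 in MOSE-L cells. MOSE-L arrays lay below MOSE-I arrays and overlapped MOSE-E arrays. The log2 changes were -0.43 in MOSE-L versus MOSE-E cells (-0.93 to 0.07, adjusted p = 0.178) and -0.60 in MOSE-L versus MOSE-I cells (-1.10 to -0.10, adjusted p = 0.0701). All 3 Bgn probe sets gave changes of -0.46 to -0.42 and -0.60 to -0.54 in these comparisons. The MOSE-I versus MOSE-E change of 0.16 turned sign without MOSE-E replicate 1 (-0.08). Dcn and Bgn thus had point estimates of opposite sign in MOSE-L versus MOSE-E cells, and the difference between their changes was not tested. Lum, lumican, which binds collagen, ran from 31.9 to 96.8 on its single probe set and was not tested.

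Vcan encodes versican, which links hyaluronan to other matrix proteins and is remodelled by ADAMTS proteases. Its signals were 637, 1485 and 871 in MOSE-E, 697, 419.5 and 782 in MOSE-I, and 178, 608 and 386 in MOSE-L cells. The highest MOSE-L array lay just below the lowest MOSE-E array, and MOSE-I arrays overlapped both. Vcan fell to 391 ± 215 in MOSE-L cells, against 998 ± 438 in MOSE-E cells (SD, 3 arrays each), a log2 change of -1.30 (-2.18 to -0.41, adjusted p = 0.0364). The call was lost without MOSE-E replicate 2 (-0.98) or 3 (-1.35) and without MOSE-L replicate 1 (-0.89) or 3 (-1.36), with adjusted p of 0.0635 to 0.14. A second probe set gave -1.20 without a call (adjusted p = 0.0599), and the other 6 Vcan probe sets stayed under 500. The MOSE-I versus MOSE-E change was -0.58 (adjusted p = 0.357), and the step to MOSE-L gave -0.72 (adjusted p = 0.193).

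**Figure D2:**
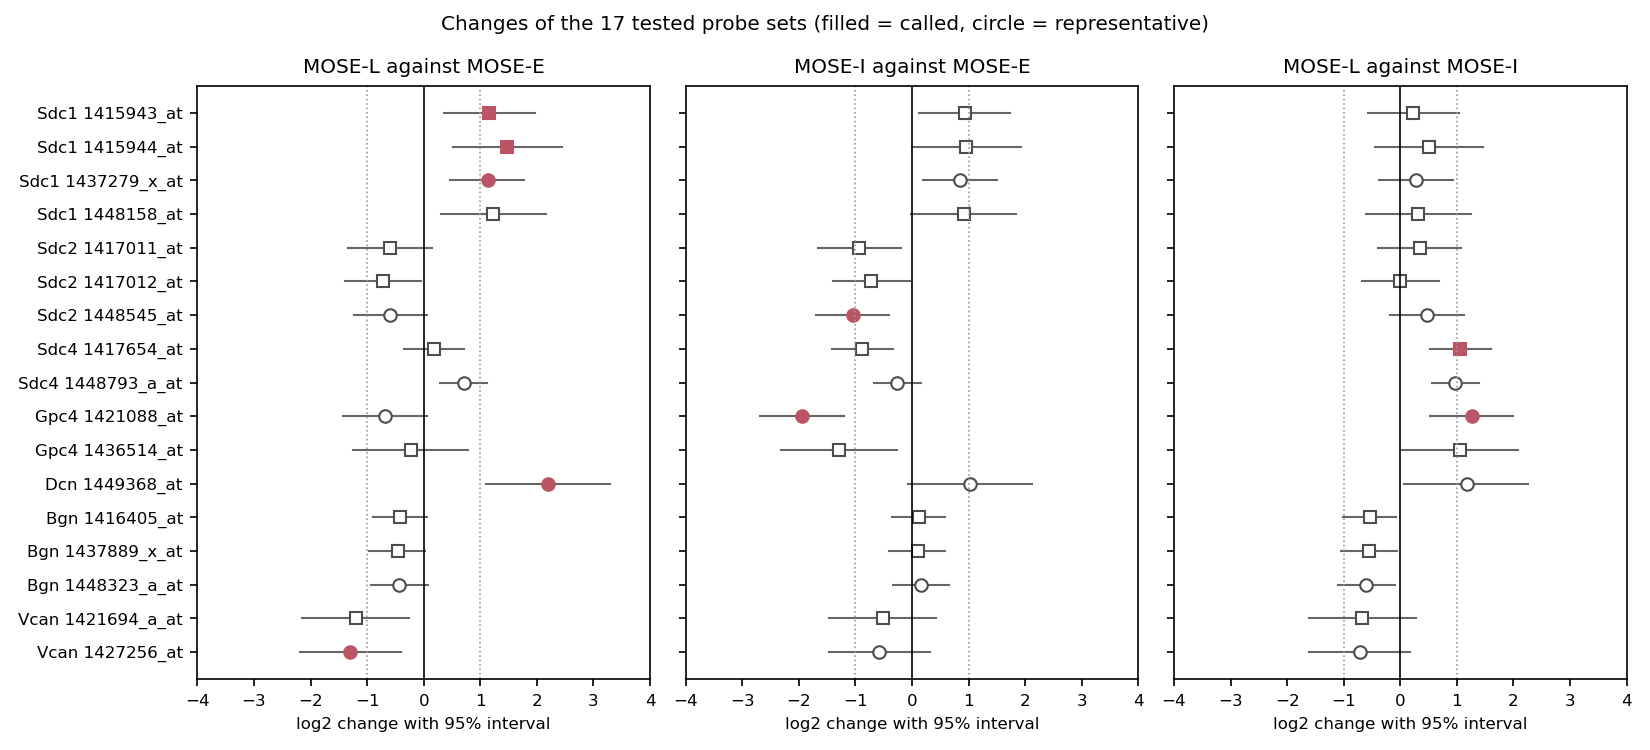
Log2 changes of the 17 tested probe sets with 95% intervals in the 3 comparisons. Filled symbols are called, circles are the representative probe set of each gene, squares its other probe sets, and dotted lines mark a change of 1. The 4 Sdc1 probe sets lie together between 1.13 and 1.47 in MOSE-L versus MOSE-E cells, and the 3 Bgn probe sets lie between -0.46 and -0.42.

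By probe set, 5 of 17 passed in MOSE-L versus MOSE-E cells (4 higher, 1 lower) against 15.0% of all probe sets, 2 in MOSE-I versus MOSE-E cells (both lower) against 5.73%, and 2 in MOSE-L versus MOSE-I cells (both higher) against 13.9%. Probe sets of 1 gene measure the same RNA and are not separate replicates.

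Other proteoglycans and small proteoglycans on the array were followed as a list chosen with earlier results known. Of the remaining syndecans and glypicans, only Sdc3 passed the filter, with log2 changes of -0.02 in MOSE-L versus MOSE-E cells (-1.11 to 1.08, adjusted p = 0.984, turning sign without MOSE-E replicate 1 or 3 or MOSE-L replicate 2 or 3, at 0.03 to 0.29) and 1.32 in MOSE-I versus MOSE-E cells (adjusted p = 0.106). Its MOSE-L versus MOSE-I change of -1.34 (adjusted p = 0.0658) was called without MOSE-L replicate 1, at -1.81 (adjusted p = 0.0143). Sdc3 passed the filter only through MOSE-I replicate 1 (512), in the stage where it was highest, and its other arrays ran from 47.9 to 260. Without the filter a different probe set represented Sdc3, and its changes in the comparisons with MOSE-I cells had the opposite sign (given below). Of 12 other small leucine-rich proteoglycans on the array, 2 passed the filter. Ogn, osteoglycin, gave 0.09 in MOSE-L versus MOSE-E cells (adjusted p = 0.926) and turned sign without MOSE-E replicate 1 (-0.16) or MOSE-L replicate 1 (-0.26) or 3 (-0.24).

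Fmod, the collagen-binding fibromodulin, was named after its values were seen. Its signals were 90.9, 209 and 281 in MOSE-E, 808, 1637 and 1919 in MOSE-I, and 84.9, 55.5 and 8.34 in MOSE-L cells. All 3 MOSE-I arrays lay above every array of the other stages. Fmod rose by 2.63 in MOSE-I versus MOSE-E cells (adjusted p = 0.00825) and fell by 3.92 in MOSE-L versus MOSE-I cells (adjusted p = 0.000372). The rise was not called without MOSE-I replicate 3 (2.39, adjusted p = 0.0634). In MOSE-L versus MOSE-E cells, whose arrays did not overlap, the change was -1.29 (adjusted p = 0.0532), and it was called without MOSE-E replicate 1 (-1.64), MOSE-I replicate 1 (-1.29) or MOSE-L replicate 1 (-1.55), with adjusted p of 0.0282 to 0.0454.

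Of 6 tested genes among 19 other proteoglycans, Tgfbr3 rose and Cd44 and Ptprz1 fell in MOSE-L versus MOSE-E cells, 3 of 6 called against 15.6% of all genes. Tgfbr3, betaglycan, a coreceptor for transforming growth factor beta, had signals of 207, 200.1 and 183 in MOSE-E, 501, 3267 and 3245 in MOSE-I, and 863, 1625 and 1149 in MOSE-L cells. Every later-stage array lay above every MOSE-E array. Its changes were 2.31 in MOSE-L versus MOSE-E cells (1.07 to 3.56, adjusted p = 0.0138) and 2.88 in MOSE-I versus MOSE-E cells (adjusted p = 0.0144), the second not called once replicate 2 or 3 of either stage was removed (2.45 to 2.90, adjusted p = 0.0528 to 0.0727). Without MOSE-I replicate 1, its fall in MOSE-L versus MOSE-I cells was called, at -1.43 (adjusted p = 0.00651).

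Cd44, the hyaluronan receptor that can carry sulfated chains, fell by 1.38 in MOSE-L versus MOSE-E cells (adjusted p = 0.00831), with mean signals of 3525 ± 1318 in MOSE-L and 8892 ± 1806 in MOSE-E cells (SD, 3 arrays each). Ptprz1, a receptor phosphatase that carries chondroitin sulfate, had 3.08, 110.0 and 76.0 in MOSE-L cells against 186, 1540.1 and 1528 in MOSE-E cells, with MOSE-E replicate 1 low. Its change of -3.04 (-4.63 to -1.44, adjusted p = 0.0125) was not called without MOSE-E replicate 2 or 3 (both -2.58, adjusted p = 0.0771 and 0.0824). In MOSE-I versus MOSE-E cells it gave -3.33 (adjusted p = 0.0209), not called once replicate 2 or 3 of either stage was removed (-3.50 to -2.87, adjusted p = 0.0528 to 0.142).

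Enzymes that build the chains changed in both directions between MOSE-L and MOSE-E cells. All 3 lists have few tested genes, and medians of their log2 changes were 0.43 (linker), 0.21 (heparan sulfate) and -0.21 (chondroitin and dermatan sulfate), beside 0.03 over all genes. The shares called were 33.3% of the linker list, 1 in 10 of the heparan sulfate list and 62.5% of the chondroitin and dermatan sulfate list, against 15.6% of all genes. Of 3 tested linker enzymes, Pxylp1, the phosphatase that acts on the linker xylose, rose by 2.71 (adjusted p = 0.000539). Of 10 tested heparan sulfate enzymes, Hs6st2, a 6-O-sulfotransferase, fell by 1.62 (adjusted p = 0.00167), to signals of 4354 ± 540.0 in MOSE-L against 13685 ± 3019 in MOSE-E cells (SD, 3 arrays each). Of 8 tested chondroitin and dermatan sulfate enzymes, Chst11 (a 4-O-sulfotransferase) and Chpf2 (a chain-elongation factor) rose by 2.08 and 1.54 (adjusted p = 0.00381 and 0.00378), and Dse, the dermatan sulfate epimerase, fell by 3.51 (adjusted p = 1.27e-05).

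Chst12, another 4-O-sulfotransferase, fell by 1.30 (adjusted p = 0.0137), a call lost without MOSE-E replicate 2 (-1.18, adjusted p = 0.0572) or 3 (-1.05, adjusted p = 0.064). Dsel, a second epimerase named after its values were seen, fell by 1.06 (adjusted p = 0.0082) and was below the minimum change without MOSE-E replicate 1 (-0.95) or MOSE-L replicate 1 (-0.87). Among 11 tested genes of sulfate and sugar nucleotide supply, Papss2, which makes the sulfate donor, fell by 3.06 (adjusted p = 0.00238). Slc26a2, a sulfate transporter, rose by 1.11 (adjusted p = 0.0454), and this was lost on removing MOSE-E replicate 1, 2 or 3, or MOSE-I replicate 2 or MOSE-L replicate 2 (0.99 to 1.25, adjusted p = 0.0517 to 0.143). The median change of that list was 0.17, and 18.2% of it was called against 15.6% of all genes.

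Genes that trim or shed heparan sulfate proteoglycans at the surface were listed together with metalloproteinase inhibitors. The list held 1 rise and 3 falls among 7 tested genes in MOSE-L versus MOSE-E cells, 57.1% against 15.6% of all genes. Sulf2, an extracellular 6-O-endosulfatase, rose by 1.35 (adjusted p = 0.0125), lost without MOSE-E replicate 3 (1.26, adjusted p = 0.0542). The metalloproteinases Mmp2 and Mmp14 fell, with log2 changes of -3.74 and -3.01 (adjusted p = 3.68e-06 and 7.78e-05), with Mmp2 at 83.8, 56.0 and 53.3 in MOSE-L against 1203, 1656 and 1568 in MOSE-E cells. Timp3, an inhibitor of metalloproteinases, fell by 1.24 with overlapping stages (adjusted p = 0.0354), lost on removing MOSE-E replicate 2 or 3, or MOSE-I replicate 3, or MOSE-L replicate 1 or 2 (-1.24 to -0.92, adjusted p = 0.0519 to 0.138). Adam10 and Adam17 of this list, named after their values were seen, were not called, at -0.34 and 0.42 (adjusted p = 0.331 and 0.334).

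Sulf1, the second 6-O-endosulfatase and named after its values were seen, had signals of 3331, 3301 and 3896 in MOSE-E, 350.5, 1342 and 1348 in MOSE-I, and 2445, 3085 and 3365 in MOSE-L cells. MOSE-I arrays lay below all others, as they did for the representative probe set of Gpc4. Sulf1 fell by 1.95 in MOSE-I versus MOSE-E cells (adjusted p = 0.0179), lost without MOSE-E replicate 2 or 3 (-1.99 and -1.87, adjusted p = 0.0788 and 0.0876), and rose by 1.70 in MOSE-L versus MOSE-I cells (adjusted p = 0.0148).

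Versican-cleaving proteases and hyaluronan partners, 11 of them tested, held 4 rises and 4 falls in MOSE-L versus MOSE-E cells, 72.7% against 15.6% of all genes, with a median change of -0.72. The protease Adamts9 rose by 3.16 (adjusted p = 0.000319), with signals of 1450.2, 1994 and 1706.5 in MOSE-L against 101, 144 and 204 in MOSE-E cells. Adamts5, a related protease, Cemip, which degrades hyaluronan, and Fbln2, a versican-binding fibulin, fell, with changes of -2.84, -2.95 and -1.96 (adjusted p = 0.00146, 0.00451 and 0.00568). Named after their values were seen, Adamts4 and the hyaluronan-binding Tnfaip6 rose by 1.63 and 1.69 (adjusted p = 0.00827 and 0.0052). Itih2, which donates protein chains to hyaluronan, rose by 1.42 and Hmmr, a hyaluronan receptor of cycling cells, fell by 1.60 (adjusted p = 0.0372 and 0.0361). Itih2 lost its call without MOSE-E replicate 1, 2 or 3 or MOSE-L replicate 2 or 3 (1.22 to 1.67), and Hmmr on removing MOSE-E replicate 1, 2 or 3, or MOSE-I replicate 3, or MOSE-L replicate 3 (-1.72 to -0.86).

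**Figure D3:**
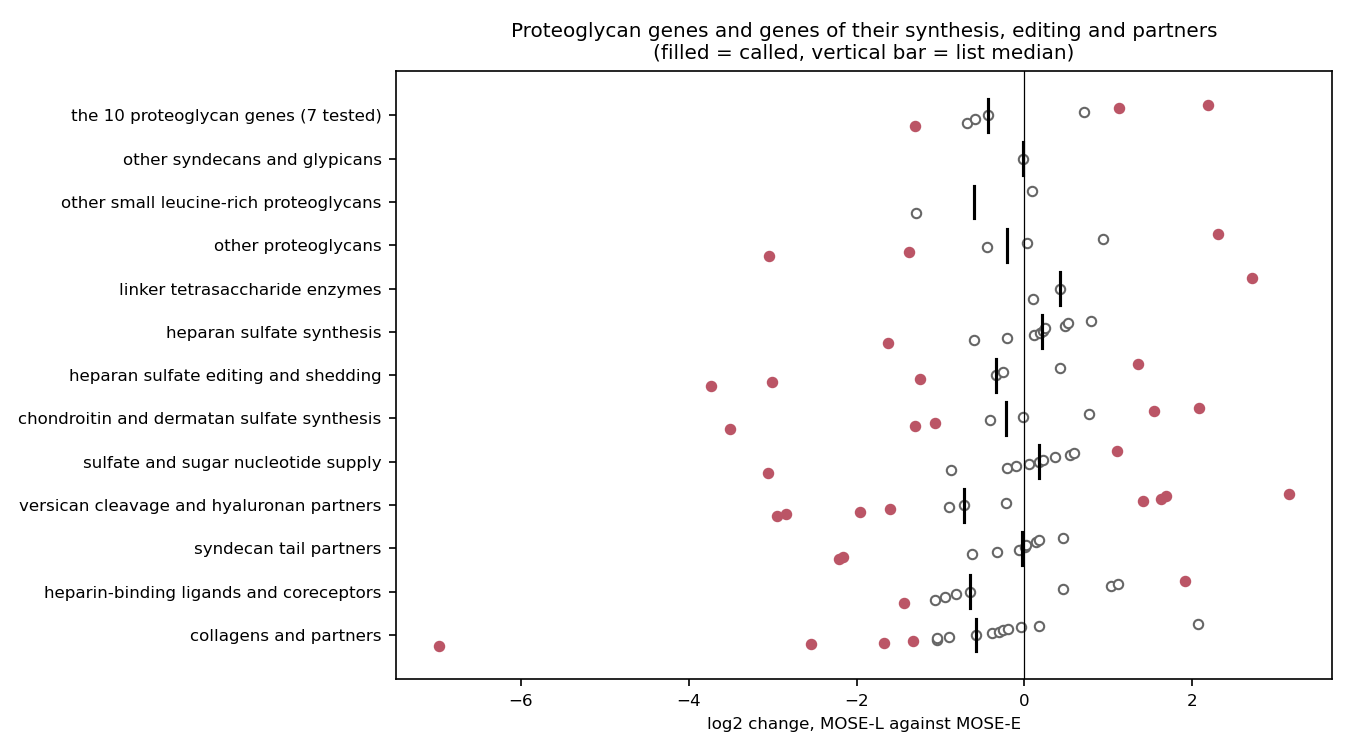
Log2 changes in MOSE-L versus MOSE-E cells of the tested genes in the 10-gene set and in lists of related genes, with 1 point per gene, filled where called, and a bar at each list's median. Rises and falls occur together in most lists, and the lowest point is Col1a2 at -6.98.

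Of 15 tested collagens and partners that small leucine-rich proteoglycans bind, 4 fell and none rose in MOSE-L versus MOSE-E cells, 26.7% against 15.6% of all genes, with a median change of -0.58. Col1a2 and Col1a1, the chains of type I collagen, fell, with changes of -6.98 and -2.54 (adjusted p = 2.59e-06 and 0.00172), and Lox, which cross-links collagen, fell by 1.67 (adjusted p = 0.0034). Col5a1 fell by 1.33 with overlapping stages (adjusted p = 0.031), lost without MOSE-E replicate 2 or 3 or MOSE-L replicate 1 or 2 (-1.31 to -0.98, adjusted p = 0.065 to 0.119).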

How the data were processed

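The 9 mouse arrays held biotin-labelled RNA of MOSE cells, 3 arrays per stage, grouped by their titles. The deposited values are linear intensities (signals per probe set), which the authors made in MAS and scaled to a trimmed mean of 500. Detection calls were not used here. Probe sets with a highest signal over 500 were kept and log2(signal + 50) was fitted with 1 mean per stage over all arrays in limma 3.58.1 (R 4.3.3, lmFit and eBayes with a variance trend), with Benjamini-Hochberg adjustment over 13845 probe sets. Changes are on this scale, which understates those of low signals. A gene was represented by its probe set with the highest mean signal, and others are given for members. Folds are ratios of mean signals. Of 45101 probe sets, 34958 named 1 gene, 932 several and 9211 none.

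The members and lists were chosen with earlier results of these data known. Named were all members, in other lists up to 4 called genes by size of change (MOSE-L versus MOSE-E) (every called gene for other proteoglycans, syndecans and glypicans), and, where none was called, the gene with the highest mean signal. Genes outside this rule are marked as named after their values were seen. Promoters were read from RefSeq (GRCm38.p6), with 6 of 10 members matched. Alternatives were the added value, normalization, filter, variance model, thresholds, the methods' t-test, the replicate block, the mean over probe sets and leaving out each array.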

Additional observations from a re-analysis of the deposited data

How the results depend on the processing

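Counts of members called moved with the settings. Higher in MOSE-L versus MOSE-E cells were 2 genes, 3 with no minimum change, 0 under a p threshold of 0.01 and 1 by the methods' t-test after Benjamini-Hochberg adjustment, and 1 to 2 when leaving out 1 array. Lower in that comparison was 1 gene, and 0 without the filter, with only the stages compared, at 0.01, and by the methods' t-test with or without adjustment (0 to 1 leaving out 1 array). Lower in MOSE-I versus MOSE-E cells were 2 genes, and 1 after quantile normalization, after median centring, with 1 or 200 added, without the filter or the variance trend, at 0.01, by the methods' t-test or with the mean over probe sets, 0 by the adjusted t-test, and 0 to 2 leaving out 1 array. None was higher (0 to 1 leaving out 1 array). Higher in MOSE-L versus MOSE-I cells was 1 gene, and 0 with an added value of 200, at 0.01 or by the adjusted t-test, 2 with quantile normalization, no minimum change, the methods' t-test or the mean over probe sets, and 0 to 2 leaving out 1 array. None was lower under any setting run. With the replicate number as a block the counts were 2 and 1, 0 and 2, and 1 and 0, as without it. The replicate numbers were not used as pairs in the main fit. Same-numbered arrays correlated at -0.11 to 0.41 and 2 of 9 such pairs exceeded 0.1. In 7 of 18 cases an array correlated best with its own number in another stage. With 3 arrays a stage, these values cannot decide whether the numbers pair the arrays.

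Bgn in MOSE-I versus MOSE-E cells turned to -0.02 with quantile normalization and -0.08 without MOSE-E replicate 1 (-0.08 to 0.36 leaving out 1 array). Sdc3 in MOSE-L versus MOSE-E cells turned to 0.02 with an added value of 200, 0.07 without the filter, 0.16 by the methods' t-test with or without adjustment, and -0.49 to 0.29 leaving out 1 array. Without the filter a different probe set represented Sdc3, with -0.42 in MOSE-I versus MOSE-E and 0.49 in MOSE-L versus MOSE-I cells. Ogn turned to -0.03 with the mean over probe sets and -0.26 to 0.75 leaving out 1 array, and Ptprz1 in MOSE-L versus MOSE-I cells to -0.01 with an added value of 1 and -0.03 without MOSE-L replicate 2 (-0.03 to 0.77 leaving out 1 array). The cause of these shifts was not tested. The number of arrays limits the precision, and genes under a signal of 500 were not tested.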

Other observations

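Partners of the syndecan tail and heparin-binding ligands and receptors were followed as further lists. Of 10 tested tail partners, none rose and 2 fell in MOSE-L versus MOSE-E cells, 2 of 10 against 15.6% of all genes, with a median log2 change of -0.03. Actn1, the alpha-actinin that links syndecan-4 to actin, fell by 2.21 (adjusted p = 0.00107), and Tiam1, a Rac exchange factor that binds syndecan-1, fell by 2.16 (adjusted p = 0.000591). Of 9 tested ligands and coreceptors, 22.2% were called and the median change was -0.65. Fgfr1, a fibroblast growth factor receptor that needs heparan sulfate, rose by 1.91 (adjusted p = 0.00633), while its relative Fgfr2 fell by 1.43 (adjusted p = 0.0122), a call lost without MOSE-E replicate 2 (-1.34, adjusted p = 0.0506).

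Glce, the heparan sulfate C5-epimerase, was named after its values were seen. It rose by 1.38 in MOSE-L versus MOSE-I cells (adjusted p = 0.0238). The call was lost on removing any MOSE-I array or the third MOSE-L array (0.84 to 1.43). The rise of Sulf2 in MOSE-L versus MOSE-I cells, 1.01 (adjusted p = 0.0411), was lost on removing any MOSE-E array, or replicate 2 or 3 of MOSE-I or MOSE-L (0.69 to 1.06).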
